A study of Mus musculus with 65 samples.

Results

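CTCF and cohesin peaks that lack LDB1 and YY1 were examined in untreated LDB1-AID cells, a subline of the mouse erythroblast line G1E-ER4. Sites were chosen from the CTCF peaks on chromosomes 1 to 19 and X: they shared at least 1 bp with a RAD21 peak and none with an LDB1 or a YY1 peak of the same subline. The choice left 24848 of 54223 CTCF peaks (45.8%). Of the other CTCF peaks, 27407 had no RAD21 peak, 556 had RAD21 and LDB1, and 1412 had RAD21 and YY1 without LDB1. Presence or absence of these 4 proteins is what defined the sites and is not a result.

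CTCF is a zinc finger protein that binds a long, asymmetric DNA motif. Cohesin is the ring-shaped complex that extrudes loops of DNA and is halted at bound CTCF. RAD21 and SMC3 are subunits of the ring, so RAD21 peaks mark where cohesin is held. Loops tend to form between CTCF sites whose motifs point towards each other, and cohesin tends to sit to one side of the motif. LDB1 is a cofactor without DNA binding of its own that joins erythroid enhancers to promoters, and YY1 is a zinc finger protein of promoters and enhancers.

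The chromatin immunoprecipitation sequencing series labels 65 samples, of which 22 entered the 9 peak lists used here. LDB1-AID and SMC3-AID cells are G1E-ER4 sublines in which LDB1 or SMC3 is fused to an auxin-inducible degron, so that adding auxin triggers degradation of that protein. The groups were untreated LDB1-AID cells (CTCF, RAD21, LDB1 and YY1), LDB1-AID cells after 4 h of auxin (LDB1), and untreated and 4 h auxin-treated SMC3-AID cells (RAD21 and LDB1). G1E-ER4 cells lack endogenous GATA1 and carry an estrogen-inducible GATA1, a background that all groups share. Whether estradiol was given, and whether a subline was 1 clone, is not given in the sources used here. Each list joined 2 replicates (LDB1-AID) or 3 replicates (SMC3-AID), every peak was 400 bp wide, and no list held a score. No value below therefore has a replicate error, read depth is unknown, and intervals and tests over peaks cover counting error only. The RAD21 lists held 33160 peaks in LDB1-AID cells and 15223 in untreated SMC3-AID cells, and depth, calling, the tagged protein and occupancy cannot be told apart as sources of that difference.

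Most of the called RAD21 peaks fell on the LDB1- and YY1-free sites. In LDB1-AID cells these were 24863 of 33160 peaks (74.98%). That list took part in the choice of sites, so its share follows in part from the choice. In the other subline 12689 of 15223 RAD21 peaks fell on the sites (83.4%). The sites are the bulk of all CTCF peaks with RAD21, and no background was set beside the 83.4%. Without scores, these counts of peaks do not measure how much cohesin the sites held. A single RAD21 peak lay on 24831 of the sites, and 17 sites touched more than 1. By chromosome the sites made up between 42.2% of CTCF peaks (chromosome 5) and 51.0% (chromosome 18), so they were spread over all 20 chromosomes in a narrow range.

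Few sites lay at the edges of the choice. Only 90 sites had 20 bp or less in common with RAD21, and 36 of these (40%) had an SMC3-AID RAD21 peak. Just outside, 64 CTCF peaks missed RAD21 by under 20 bp, and 27 of them (42.2%) had one. At the other edge, 45 sites missed an LDB1 or YY1 peak by under 20 bp, of which 14 (31.1%) had an SMC3-AID RAD21 peak. The 67 CTCF and RAD21 peaks that touched LDB1 or YY1 by 20 bp or less had one in 27 cases (40.3%).

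The first comparison asked whether cohesin was called at the same sites in the second subline, whose RAD21 list took no part in the choice. Of the 24848 sites, 12670 had an untreated SMC3-AID RAD21 peak, which was 51.0% (Wilson 95% interval 50.4 to 51.6), and 12178 did not. They are called shared and unshared sites below. Over all CTCF peaks the share was 25.9%, and over all CTCF peaks with RAD21 it was 50.6%, so the share at these sites lay close to that of CTCF and RAD21 peaks as a whole, of which they are the bulk.

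CTCF and RAD21 peaks with LDB1 or YY1 were shared less often. Of the 556 CTCF and RAD21 peaks with LDB1, 234 were shared (42.1%, 38.1 to 46.2), and the odds of sharing were 1.43 times as high at the LDB1- and YY1-free sites (95% interval 1.21 to 1.70; two-sided Fisher's exact test, adjusted p = 8.60e-05). Of the 1412 with YY1 but no LDB1, 656 were shared (46.5%, 43.9 to 49.1), and the odds at the free sites were 1.20 times as high (1.08 to 1.34; Fisher's exact test, adjusted p = 0.00186). In both comparisons the LDB1- and YY1-free sites had the higher share on 17 of 20 chromosomes. When at least 200 bp had to be in common, neither difference passed the test (odds ratios 1.17 and 1.09, Fisher's exact test, adjusted p = 0.383 and 0.42). That setting applied to every list, so it also changed the classes. Peaks with under 200 bp in common with LDB1 or YY1 then counted as free. Those with under 200 bp in common with RAD21 counted as without RAD21. CTCF peaks without RAD21 in LDB1-AID cells were rarely shared, at 473 of 27407 (1.73%, 1.58 to 1.89), an odds ratio of 59.2 (53.9 to 65.1), with the free sites higher on 20 of 20 chromosomes. It was 24.7 with at least 200 bp in common and 74.4 with midpoints within 500 bp. The p of that Fisher's exact test was below the smallest number the computation can hold. This split was by RAD21 in 1 subline and the outcome was RAD21 in the other. The value therefore describes how far the 2 RAD21 lists agree at CTCF peaks.

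**Figure D1:**
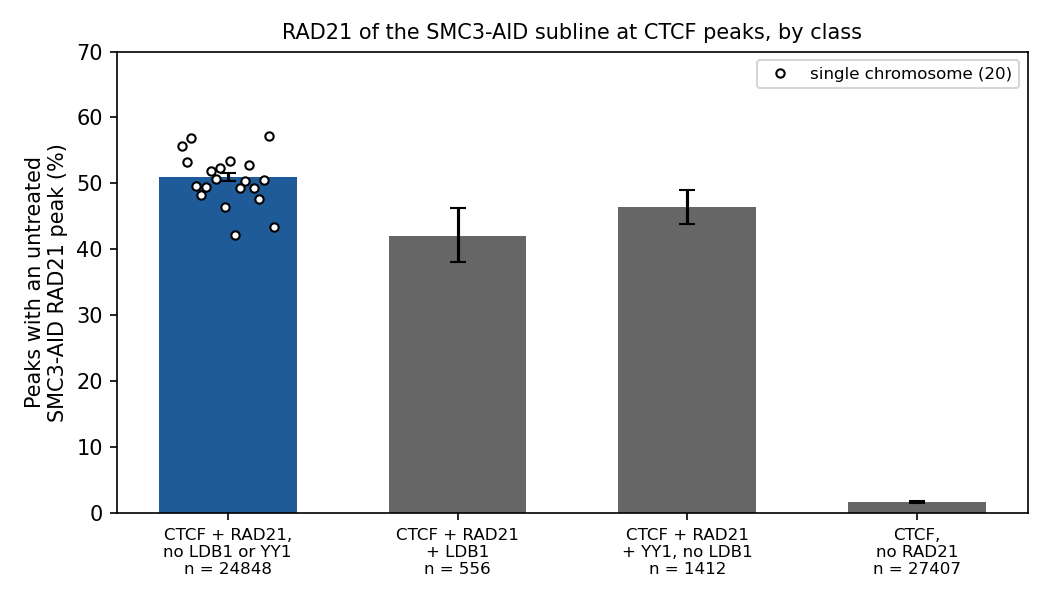
Share of CTCF peaks with an untreated SMC3-AID RAD21 peak (vertical axis, percent) in 4 classes of LDB1-AID CTCF peaks. Bars are shares, black bars are Wilson 95% intervals, and open circles are the 20 chromosomes for the LDB1- and YY1-free sites. The free sites stood at 51.0% with chromosomes from 42.2% to 57.2%, and CTCF peaks without RAD21 at 1.73%.

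Sharing varied between chromosomes. Chromosome 12 had the lowest share, with 422 of 1001 sites (42.2%, 39.1 to 45.2), followed by X with 272 of 627 (43.4%, 39.6 to 47.3) and chromosome 10 with 516 of 1112 (46.4%, 43.5 to 49.3). Chromosome 19 had the highest, with 499 of 873 sites (57.2%, 53.9 to 60.4), followed by chromosome 3 with 725 of 1275 (56.9%, 54.1 to 59.6) and chromosome 1 with 970 of 1741 (55.7%, 53.4 to 58.0). The intervals of the 3 lowest and the 3 highest chromosomes did not overlap. Sharing depended little on the adjacent site. A site whose left neighbour was shared was itself shared in 52.8% of cases (51.9 to 53.6), against 49.1% (48.2 to 50.02) where the left neighbour was unshared.

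In position, few sites lay close to the line between shared and unshared. The lists hold no scores, so how close a site came to being called is unknown. Of the unshared sites, 178 of 12178 (1.46%) had an SMC3-AID RAD21 centre within 1 kb, and 29 missed such a peak by under 20 bp. Among shared sites, 35 met it by 20 bp or less.

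RAD21 centres lay further from CTCF at shared than at unshared sites. The offset was measured as the distance from the centre of the CTCF peak to the centre of the nearest RAD21 peak in LDB1-AID cells, and the choice of sites limited it to under 400 bp. Its median was 54 bp over all sites, with quartiles of 26 and 97 bp. At shared sites the median was 67 bp (quartiles 34 and 115), and at unshared sites 44 bp (20 and 77). The distribution of signed offsets had its maximum at the CTCF centre for unshared sites and a shallow dip there for shared sites, with 7.83% of shared sites from -40 to -20 bp, 6.83% from -20 to 0 bp and 7.90% from 40 to 60 bp.

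**Figure D2:**
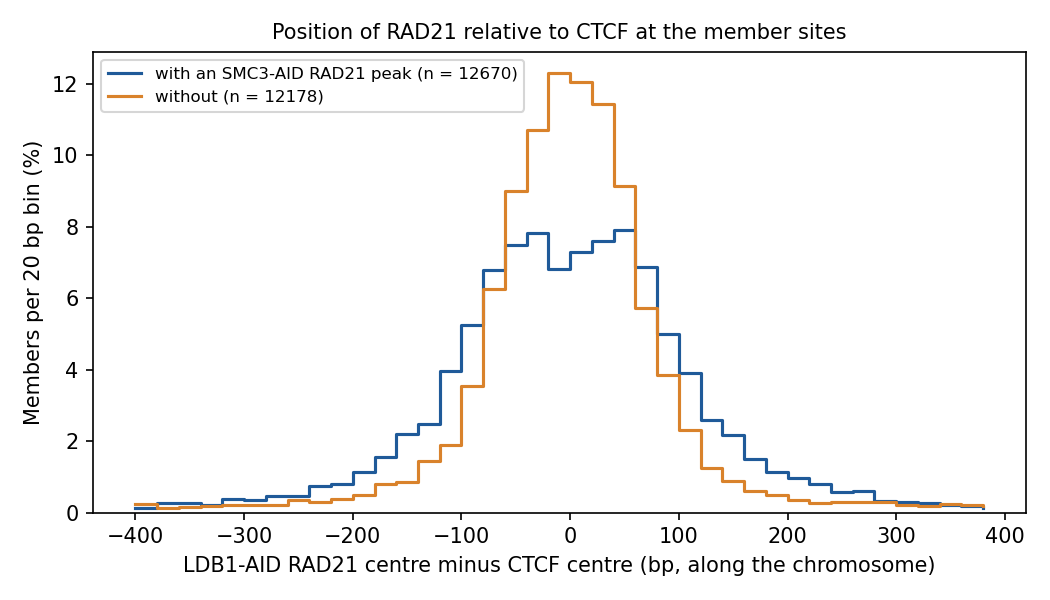
Signed distance from the CTCF centre to the LDB1-AID RAD21 centre (horizontal axis, bp; positive values point to higher coordinates) against the share of sites per 20 bp bin (vertical axis, percent). The blue line is the 12670 shared sites and the orange line the 12178 unshared sites; the unshared sites crowd at 0 and the shared sites spread to both sides.

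A RAD21 centre within 50 bp of the CTCF centre was found at 4802 of 12670 shared sites (37.9%, 37.1 to 38.7) and at 6943 of 12178 unshared sites (57.0%, 56.1 to 57.9). The odds ratio was 0.46 (0.437 to 0.484; Fisher's exact test, two-sided, adjusted p = 3.45e-200), and the shared sites had the lower share on 20 of 20 chromosomes. Over all CTCF peaks with RAD21 the share was 46.5%. When sharing was read at the RAD21 peak in place of the CTCF peak, the odds ratio was 0.454.

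Sharing followed the offset in steps. It was 36.6% (34.8 to 38.5) of 2534 sites with an offset of 0 to 10 bp, 39.9% of 3497 at 11 to 25 bp and 43.4% of 5714 at 26 to 50 bp. It reached 54.4% (53.2 to 55.5) of 7269 sites at 51 to 100 bp and 68.3% (66.9 to 69.7) of 4172 at 101 to 200 bp. The share was 68.2% of 1131 sites at 201 to 300 bp and fell back to 55.4% (51.1 to 59.5) of 531 at 301 to 399 bp. Sharing required an SMC3-AID RAD21 centre under 400 bp from the CTCF centre, and this last group lies nearest to that limit. The part of the limit in the fall was not tested. Among the LDB1- and YY1-free sites, those with a RAD21 centre 101 to 300 bp from CTCF were thus most often called in both sublines.

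The offset also differed from that of CTCF and RAD21 peaks with LDB1 or YY1, a comparison made after the offsets had been seen. RAD21 lay within 50 bp of the CTCF centre at 11745 of 24848 LDB1- and YY1-free sites (47.3%, 46.6 to 47.9). It did so at 197 of 556 CTCF and RAD21 peaks with LDB1 (35.4%, 31.6 to 39.5; odds ratio 1.63, 1.37 to 1.95; Fisher's exact test, adjusted p = 7.43e-08). Among those with YY1 only it did so at 527 of 1412 (37.3%, 34.8 to 39.9; odds ratio 1.51, 1.35 to 1.68; Fisher's exact test, adjusted p = 1.22e-12). The free sites had the higher share on 17 of 20 chromosomes in each comparison. Peaks with LDB1 and with YY1 only had larger median offsets (74.5 and 72 bp against 54 bp). They were nevertheless shared less often (42.1% and 46.5% against 51.0%), so the rise of sharing with offset did not hold between these classes. With at least 200 bp in common, the difference in near RAD21 centres from peaks with LDB1 did not pass the test (odds ratio 1.09, Fisher's exact test, adjusted p = 0.594). That setting also moved peaks between the classes.

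At most shared sites RAD21 lay on the same side of CTCF in both sublines. At shared sites the SMC3-AID RAD21 centre had a median offset of 66 bp (quartiles 34 and 112), and the RAD21 centres of the 2 sublines lay a median of 32 bp apart (quartiles 15 and 62). Neither direction along the chromosome was favoured: RAD21 lay towards higher coordinates at 12351 sites (49.7%), towards lower coordinates at 12343 (49.7%) and on the CTCF centre at 154. Of the 10422 shared sites with an LDB1-AID offset of at least 25 bp, 9443 had the SMC3-AID centre on the same side (90.6%, 90.0 to 91.2). The agreement was 51.6% where the offset was 0 to 10 bp, 91.4% at 51 to 100 bp and 95.4% at 101 to 200 bp. Across the 12670 shared sites the 2 signed offsets had a Pearson r of 0.755 and a Spearman rho of 0.802, as a description. Both offsets are taken from the same CTCF centre, so an error in that centre moves them together.

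**Figure D3:**
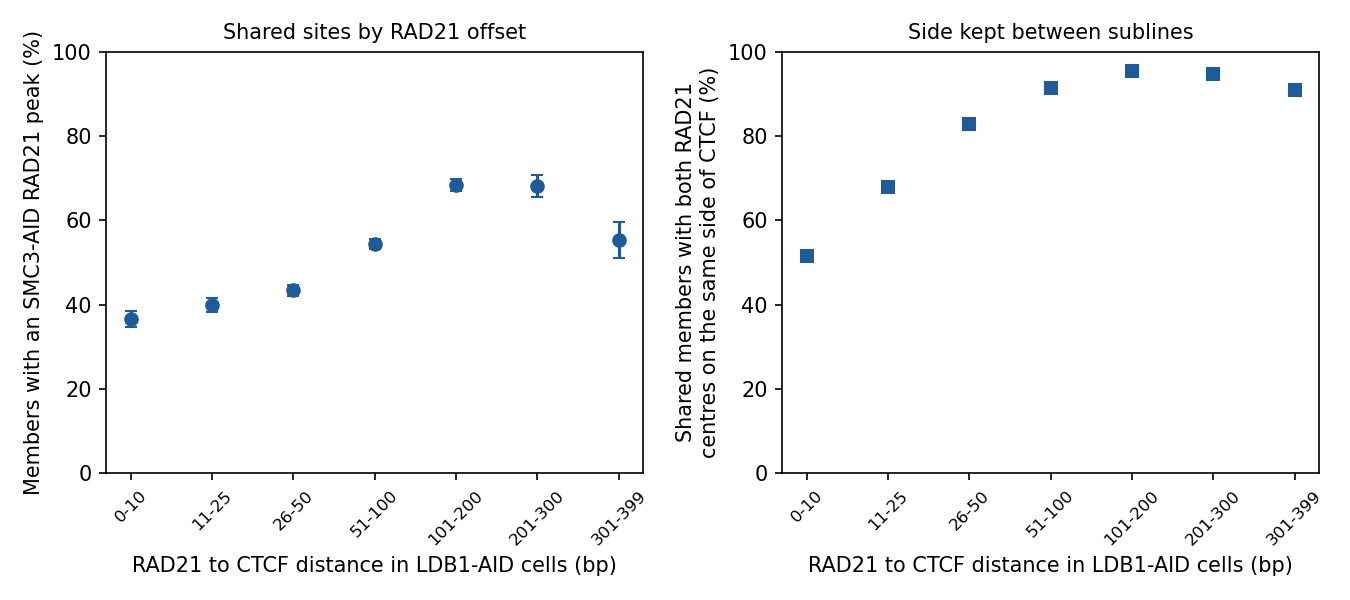
Sites grouped by the distance between the LDB1-AID RAD21 and CTCF centres (horizontal axes, bp). The left panel gives the share of sites with an SMC3-AID RAD21 peak with Wilson 95% intervals, which rose from 36.6% to 68.3% and was 55.4% in the last group; the right panel gives the share of shared sites with both RAD21 centres on 1 side of CTCF, from 51.6% to 95.4%.

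The sides of cohesin at neighbouring sites depended on the distance between them. Neighbours here are consecutive LDB1- and YY1-free sites, so CTCF peaks of the other classes can lie between them. Of 24828 pairs of neighbouring sites, 14546 had RAD21 at least 25 bp to one side of CTCF at both. In 7332 pairs (50.4%) RAD21 lay on the same side at both sites. In 3563 pairs RAD21 lay on the inner side of both sites, here called facing, and in 3651 on the outer side of both, here called pointing apart. Facing pairs were thus 49.4% of the 7214 pairs that faced or pointed apart, over all distances. Consecutive pairs have 1 site in common, and the pattern was noticed in these data, so the shares by distance are given as a description.

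Close neighbours more often pointed apart and distant neighbours more often faced each other. Among pairs that faced or pointed apart, facing pairs were 570 of 1522 under 10 kb (37.5%, 35.1 to 39.9) and 580 of 1432 at 10 to 25 kb (40.5%, 38.0 to 43.1). They were 47.1% of 1417 at 25 to 50 kb and 54.1% of 1356 at 50 to 100 kb. At 100 to 250 kb they were 631 of 956 (66.0%, 62.9 to 68.9), and beyond 250 kb 381 of 531 (71.8%, 67.8 to 75.4). On each of the 20 chromosomes the facing share was higher at 100 kb or more than under 10 kb. The share of pairs with RAD21 on the same side moved less, from 53.4% under 10 kb to 47.4% beyond 250 kb.

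Pairs of shared and pairs of unshared neighbours are set side by side here, again as a description. The p-values of their tests are not given, since pairs have sites in common. Pairs with RAD21 on the same side at both sites are left out of these counts. Under 10 kb, 120 of the 452 pairs of 2 shared neighbours that faced or pointed apart were facing (26.5%, 22.7 to 30.8). For pairs of 2 unshared neighbours it was 152 of 311 (48.9%, 43.4 to 54.4). The odds ratio was 0.378, and pairs of shared sites had the higher facing share on 2 of 20 chromosomes. At 100 kb or more, 339 of the 471 pairs of shared sites that faced or pointed apart were facing (72.0%, 67.8 to 75.8). For pairs of unshared sites it was 234 of 355 (65.9%). The odds ratio there was 1.33, and pairs of shared sites had the higher facing share on 10 of 20 chromosomes. It lay between 1.25 and 1.46 over 7 other settings. Unshared sites also had smaller offsets (median 44 against 67 bp), and the part of this in the differences was not tested.

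Reading the side from the RAD21 peaks of SMC3-AID cells gave close values for pairs of shared sites. The counts are again of pairs that faced or pointed apart. Facing pairs were 25.1% (21.4 to 29.2) of 466 under 10 kb, 29.7% of 438 at 10 to 25 kb and 44.3% of 447 at 25 to 50 kb. They were 54.7% of 453 at 50 to 100 kb, 66.2% (60.8 to 71.2) of 314 at 100 to 250 kb and 78.7% (71.4 to 84.5) of 150 beyond 250 kb. With LDB1-AID RAD21 the last value was 78.5% (71.3 to 84.4) of 149. The shared sites and their CTCF centres were common to both readings, while the RAD21 libraries were not. The side was kept at 90.6% of shared sites with an LDB1-AID offset of at least 25 bp. Close values largely follow from that and are not a separate test of the pattern.

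**Figure D4:**
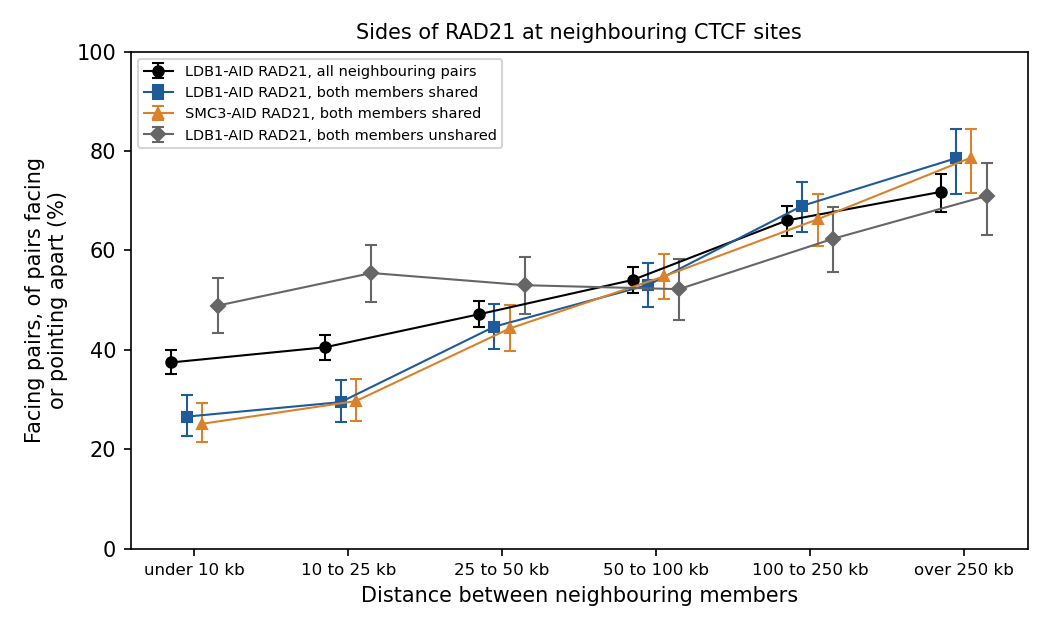
Pairs of neighbouring LDB1- and YY1-free sites by the distance between them (horizontal axis) and the share of facing pairs among those facing or pointing apart (vertical axis, percent), with Wilson 95% intervals. Lines are all pairs, pairs of shared sites with the side read in LDB1-AID or in SMC3-AID cells, and pairs of unshared sites; all pairs rose from 37.5% to 71.8%, and pairs of unshared sites stayed between 48.9% and 55.4% up to 100 kb.

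The neighbourhood of the sites was compared next. Another CTCF peak of any class lay at a median of 7.21 kb, a YY1 peak at 35.9 kb and an LDB1 peak at 48.5 kb. Within 10 kb, 14943 sites (60.1%) had another CTCF peak, against 60.3% of all CTCF peaks. An LDB1 peak was within 10 kb of 4111 sites (16.5%, against 17.7% of all CTCF peaks), and a YY1 peak of 5333 (21.5%, against 26%). For LDB1 and YY1 the choice of sites had already removed the peaks that touch them.

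Shared and unshared sites differed little at this range. Another CTCF peak lay within 10 kb of 61.0% of shared and 59.3% of unshared sites (odds ratio 1.07, 1.02 to 1.13; Fisher's exact test, two-sided, adjusted p = 0.0105; higher at shared sites on 17 of 20 chromosomes). Within 5 kb the odds ratio was 1.01 (Fisher's exact test, adjusted p = 0.834), and within 25 kb it was 1.22 (1.14 to 1.30; Fisher's exact test, adjusted p = 1.52e-08). A YY1 peak was within 10 kb of 20.6% of shared and 22.3% of unshared sites (odds ratio 0.905, 0.852 to 0.962; Fisher's exact test, adjusted p = 0.00228; higher at shared sites on 6 of 20 chromosomes). The YY1 odds ratio was 0.828 within 5 kb (Fisher's exact test, adjusted p = 2.54e-06) and 1.001 within 25 kb. Without sites that have LDB1 or YY1 within 1 kb, which also takes away part of the YY1 peaks counted, it was 0.969 within 10 kb (Fisher's exact test, adjusted p = 0.374). An LDB1 peak was within 10 kb of 16.9% of shared and 16.2% of unshared sites, which did not pass the test (odds ratio 1.05, 0.982 to 1.12; Fisher's exact test, adjusted p = 0.199). Within 25 kb it did (odds ratio 1.15; Fisher's exact test, adjusted p = 6.61e-07).

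Sites far from any other CTCF peak had the lowest share among the distances to CTCF. Those whose nearest other CTCF peak lay beyond 250 kb were shared in 32 of 120 cases (26.7%, 19.6 to 35.2), and sites at 100 to 250 kb in 205 of 518 (39.6%, 35.5 to 43.8). At 5 to 10 kb the share was 52.8% (51.4 to 54.1) of 5265. Sites with no LDB1 peak within 250 kb were shared in 1417 of 3449 cases (41.1%, 39.5 to 42.7), against 54.5% (53.0 to 56.0) of 4225 at 10 to 25 kb from LDB1. For YY1 the corresponding shares were 43.4% (41.5 to 45.4) of 2459 and 53.2% (51.8 to 54.6) of 4818. At the near end the shares were 42.5% (37.2 to 47.9) of 325 sites under 1 kb from LDB1 and 39.1% (35.5 to 42.8) of 691 under 1 kb from YY1, the latter the lowest among the distances to YY1. With windows chosen after these shares were seen, the odds ratio was 1.79 for a CTCF peak within 100 kb, 1.59 for LDB1 within 250 kb and 1.40 for YY1 within 250 kb.

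**Figure D5:**
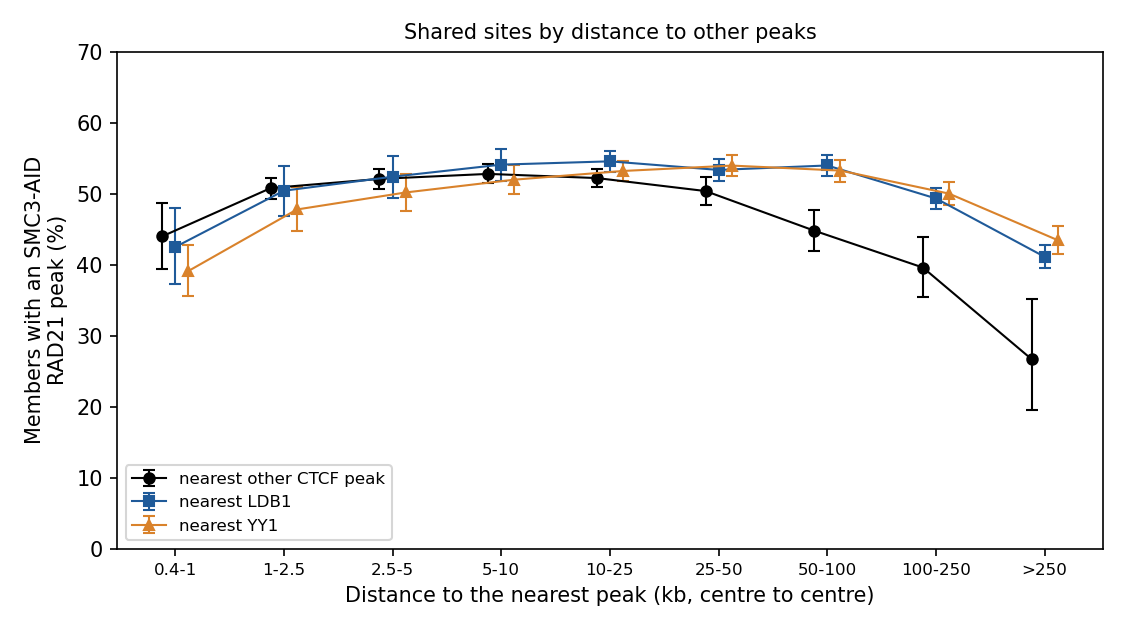
Share of LDB1- and YY1-free sites with an SMC3-AID RAD21 peak (vertical axis, percent, with Wilson 95% intervals) by the distance to the nearest other CTCF peak, LDB1 peak or YY1 peak (horizontal axis, kb). Each line is low under 1 kb, between 47.8% and 54.5% from 1 to 50 kb and low again beyond 250 kb, where it is 26.7% for CTCF.

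Few of the sites had LDB1 in the other lists. The choice of sites had already removed the CTCF peaks that touch LDB1 in untreated LDB1-AID cells. The shares of all CTCF peaks include those, so the gap between the shares is in part set by the choice. Untreated SMC3-AID cells had an LDB1 peak at 23 of 24848 sites (0.0926%, 0.0617 to 0.139), against 1% of all CTCF peaks. After 4 h of auxin, 16 sites had one (0.0644%, against 0.896%), and 10 sites had one in both conditions. In LDB1-AID cells after auxin, 10 sites had an LDB1 peak (0.0402%, against 0.219%). Shared and unshared sites held 14 and 9, 8 and 8, and 3 and 7 of these peaks respectively, and none of the 3 splits passed the test (odds ratios 1.496, 0.961 and 0.412 with intervals of 0.647 to 3.46, 0.361 to 2.56 and 0.106 to 1.59; Fisher's exact test, adjusted p = 0.438, 1 and 0.254).

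The RAD21 list of auxin-treated SMC3-AID cells was nearly empty, with 24 peaks on these chromosomes against 15223 in untreated cells, so few sites of any class could have one. The lists do not measure SMC3 itself. Of the 12670 shared sites, 2 had a RAD21 peak in SMC3-AID cells after auxin, and these were the only CTCF peaks that did (0.00369% of all). One was at chromosome 13, 45572694 to 45573093 (mm9), where the RAD21 centre lay at -57 bp from CTCF in LDB1-AID cells, at -138 bp in untreated and at -145 bp in auxin-treated SMC3-AID cells. The other was at chromosome 7, 139418310 to 139418709, with 317, 265 and 51 bp. Both kept the side of cohesin after auxin.

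With neighbours within 25 kb joined into a run, 8691 sites stood alone, 5697 runs held 2 or more and 556 held 5 or more. All positions are in mm9 and count from 1, and no gene was assigned to them because no annotation of that build was used here. The longest run by number of sites, on chromosome 7 (28029025 to 28127936, 98.9 kb), held 16 sites among 22 CTCF peaks. Only 4 of the 16 were shared, RAD21 lay within 50 bp of CTCF at 11 of them, and the median offset was 28.5 bp. Of the 4 shared sites, 2 kept the side of RAD21 between sublines, among them the site at 28120935 to 28121334 with 126 bp in LDB1-AID and 17 bp in SMC3-AID cells. The others changed side, with -42 and 18 bp at 28062221 to 28062620 and -96 and 252 bp at 28070491 to 28070890.

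The second run, on chromosome 15 (78656937 to 78804782, 148 kb), held 15 sites among 22 CTCF peaks, with 3 LDB1 and 7 YY1 peaks in between. Of its sites 8 were shared, and 7 of these kept the side of RAD21. At 78742584 to 78742983 the offset was -123 bp in LDB1-AID and -111 bp in SMC3-AID cells, and at 78678963 to 78679362 it was -51 and -95 bp. The exception, at 78761999 to 78762398, had -30 and 24 bp. The third run, on chromosome 4 (118812809 to 118920277, 107 kb), held 12 sites among 17 CTCF peaks. Of these 7 were shared and 5 kept the side, among them 118860949 to 118861348 with -87 and -61 bp. The site at 118840183 to 118840582 changed side, with 8 and -147 bp. At 118812809 to 118813208 the LDB1-AID offset was 0 bp, so it had no side to keep.

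The longest stretches between neighbouring sites were both on X. One spanned 13.3 Mb between the sites at 110092171 to 110092570 and 123434137 to 123434536. It held 7 CTCF, 7 YY1 and 2 SMC3-AID RAD21 peaks, and 0 RAD21 and 0 LDB1 peaks of LDB1-AID cells. The other spanned 10.6 Mb between 23142733 to 23143132 and 33766125 to 33766524, and held 14 CTCF, 1 YY1 and 3 SMC3-AID RAD21 peaks. All 4 flanking sites were unshared, too few to compare with the 272 of 627 sites (43.4%) shared on X.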

How the data were processed

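Peak lists of 9 groups were used. Per the submitters' processing notes, Bowtie2, MACS2 2.2.9.1 and deepTools 3.5.1 were run on build mm9; their roles, the threshold and the rule that joined replicates are not given in the sources used here. The lists deposited by the authors give a start and an end in bp and no signal, so depth is unknown. Peaks on chromosomes 1 to 19 and X were kept. Overlap of at least 1 bp, centre offsets and distances were computed in Python 3.11.15 (numpy 2.4.6, pandas 2.3.3, scipy 1.17.1, statsmodels 0.14.6), tested on simulated data and checked with bedtools 2.31.1. Shares carry Wilson 95% intervals. The 14 Fisher's exact tests were adjusted together by Benjamini-Hochberg (threshold 0.05). The sites and lists were chosen with earlier results of these data known, and the 4 tests of offsets between classes and of facing pairs were added after values were seen; p-values of the 2 on facing pairs are not given, since pairs have sites in common. Named regions are the 3 runs with the most sites and the 2 longest stretches between sites. Single sites inside the runs were picked with their values in view. Motif, sequence and gene position were not analysed here because no genome of the build was used, and the lists hold no expression to check the cell type.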

Additional observations from a re-analysis of the deposited data

Results flagged for a closer look

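On contigs outside chromosomes 1 to 19 and X, which the choice of sites left out, 31 of 63 CTCF peaks also had RAD21 and neither LDB1 nor YY1. They lay on 8 contigs, 1 of them on mitochondrial DNA, and 18 had an untreated SMC3-AID RAD21 peak.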

How the results depend on the processing

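Of 134 alternative values for 19 results, 110 left the call and its direction as they were or stayed inside the interval. The 200 bp and 500 bp overlap settings applied to every list, so they also moved peaks between classes. With at least 200 bp in common the odds ratio of sharing fell to 1.17 against peaks with LDB1 and 1.09 against peaks with YY1, that of a second CTCF peak within 10 kb to 1.05 and that of a near RAD21 centre against peaks with LDB1 to 1.09, none past the threshold. The share of shared sites was then 47.9%, and the odds ratios for an LDB1 peak within 10 kb (0.977), SMC3-AID LDB1 (0.92) and LDB1-AID LDB1 after auxin (1.09) changed direction without passing the test. With midpoints within 500 bp, YY1 within 10 kb gave 0.936 (no longer called) and SMC3-AID LDB1 after auxin 1.04. Without sites that have LDB1 or YY1 within 1 kb these were 0.969 and 5.67, neither passing the test, and LDB1 within 10 kb gave 1.10 (called). A second CTCF peak gave 1.01 within 5 kb and 1.22 within 25 kb. LDB1 gave 0.968 within 5 kb, and it passed the test at 1.15 within 25 kb, 1.59 within 250 kb and 1.08 in a logistic model with the offset, CTCF and YY1. YY1 gave 0.828 within 5 kb, 1.001 within 25 kb, 1.40 within 250 kb and 0.84 in the logistic model. Against CTCF peaks without RAD21 the odds ratio of sharing ranged from 24.7 with at least 200 bp in common to 74.4 with midpoints within 500 bp. With sides from offsets of at least 10 bp, 87.7% of shared sites kept the side, the facing share at 100 kb or more was 65.2%, and its odds ratio between shared and unshared pairs was 1.46. With at least 50 bp, 93.1% kept the side and that odds ratio was 1.34. Over the 5 settings that changed the overlap rule or the sites kept, it lay between 1.25 and 1.37. The odds ratio of a near RAD21 centre at shared against unshared sites ranged from 0.418 to 0.526 over its 9 alternatives. The 250 kb, 100 kb and side alternatives were chosen after seeing the data. Except where the alternative's own construction shows it, the cause was not tested.

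No paired analysis was possible because each list joins all replicates of its group, and for the same reason no fit without a replicate was run. The planned motif and gene position alternatives were not run. Without scores or depth, absence of a peak is not absence of the protein.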
